A study of Mus musculus with 6 samples.

Results

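The microRNA genes of a mouse gene expression array were examined in bone marrow stromal cells grown under adipogenic conditions, as 296 of the 19938 genes that the array table could name. They were taken as the genes whose symbol starts with Mir and a digit, or with Mirlet, each read by a probe set with that symbol alone. Long host transcripts with symbols ending in hg were left out of the set, which removed 4 genes. Another 61 probe sets named microRNA genes together with further genes and were not used. The series concerns the part that miR-188 plays in the choice of these cells between the osteoblast and the adipocyte fate. Bone marrow stromal cells are the adherent cells of the marrow and hold precursors of both lineages. The cells came from C57BL/6 mice aged 6 months, which were either wild type (WT) or carried the genotype label 188 knockout (KO). Both groups were grown in α-MEM with 1 µM dexamethasone, 5 µg/ml insulin, 0.5 mM 3-isobutyl-1-methylxanthine and 10% fetal calf serum, so every group shares the induction and no undifferentiated culture was measured. Each genotype had 3 biological replicates with 1 array each. Separate mice behind the replicates are not mentioned in the labels. The p-values below therefore weigh culture-to-culture spread, which may be technical, and whether it includes spread between mice is not known. How much sequence the deletion removed, and for how many days the cells were induced, was not stated in the labels.

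A microRNA is cut from a hairpin within a longer transcript, first in the nucleus by Drosha with Dgcr8 and then in the cytoplasm by Dicer. The mature strand sits in an Argonaute protein and pairs through its seed, near its 5′ end, with messenger RNAs, which are then repressed. Many microRNA genes lie in clusters that share a transcript or within introns of coding genes, and several have been studied as regulators of adipocyte or osteoblast formation. The arrays were hybridised with labelled copies made from total RNA by a protocol for long transcripts, so a microRNA probe set may read the precursor, the host transcript or neither, and its value is not a measurement of the mature strand.

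The targeted gene, Mir188, lies within Clcn5 on chromosome X with Mir500, Mir501, Mir362 and Mir532. Mature strands of these genes, from RefSeq on GRCm38.p6, are shown because they tell which cluster members share a seed. The capitals mark the seed, bases 2 to 8, and all 5 genes lie on the minus strand. The miR-188-5p strand spans chrX:7248031-7248051 and the miR-500-3p strand chrX:7237695-7237716.
miR-188-5p: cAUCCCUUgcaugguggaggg
miR-188-3p: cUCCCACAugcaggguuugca
miR-532-3p: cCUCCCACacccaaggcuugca
miR-362-3p: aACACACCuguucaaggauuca
miR-362-5p: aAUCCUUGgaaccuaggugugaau
miR-500-5p: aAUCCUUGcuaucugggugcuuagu
miR-501-5p: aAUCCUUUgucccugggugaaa
miR-500-3p: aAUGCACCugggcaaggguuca
miR-501-3p: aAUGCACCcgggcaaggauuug
The seed AUCCUUG was shared by miR-362-5p and miR-500-5p, and the seed AUGCACC by miR-500-3p and miR-501-3p. Both seeds of miR-188 were found in no other of the 270 members with a mature sequence in the RefSeq table.

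A set of hairpins is shown for the composition that the levels followed, described below. Capitals mark G and C. Mir190a (chr9:67236660-67236726, minus strand) and Mir376c (chr12:109722718-109722803, plus strand) had the lowest G and C content among the 258 members with a hairpin in the table, at 28.4% and 29.1%. Mir212 (chr11:75173388-75173478, plus strand) had the highest, at 69.2%, and Mir219a-1 (chr17:34024983-34025092, minus strand) came next at 69.1%, level with Mir210. Mir188 (chrX:7247989-7248056, minus strand) had 55.9%.
Mir190a hairpin: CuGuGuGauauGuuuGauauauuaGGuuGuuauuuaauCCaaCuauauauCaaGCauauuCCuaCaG
Mir376c hairpin: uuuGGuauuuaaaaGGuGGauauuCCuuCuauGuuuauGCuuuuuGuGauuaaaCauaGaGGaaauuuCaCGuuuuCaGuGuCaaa
Mir188 hairpin: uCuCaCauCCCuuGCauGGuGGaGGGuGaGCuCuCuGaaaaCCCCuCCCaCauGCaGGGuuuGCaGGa
Mir219a-1 hairpin: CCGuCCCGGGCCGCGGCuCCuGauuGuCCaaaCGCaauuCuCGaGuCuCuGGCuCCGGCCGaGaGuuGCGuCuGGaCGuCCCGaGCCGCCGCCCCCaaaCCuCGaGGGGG
Mir212 hairpin: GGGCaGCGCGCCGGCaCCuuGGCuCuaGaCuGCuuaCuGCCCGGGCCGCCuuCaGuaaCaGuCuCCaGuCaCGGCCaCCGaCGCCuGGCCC

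The microRNA genes were mostly dim. Their levels were compared with those of 1027 olfactory receptor genes, whose proteins serve the sense of smell. The 95th percentile of the receptors' mean levels, 6.83 on the log2 scale of the deposited table, served as the background level. Of the 296 members, 85 (28.7%) had a mean over the 6 arrays above it, against 65.7% of all genes. The median level was 5.77 for the members, 5.03 for the olfactory receptors and 7.58 for all genes, and members ranged from 2.56 to 11.8. The count above background depended on the percentile, with 48 members above the 99th (7.65) and 187 above the 50th (5.03). A probe set that was not above this level may still read some RNA.

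Levels followed the composition of the hairpin. Over the 258 members with a hairpin sequence, the mean level correlated with the share of G and C at a Pearson r of 0.82 (Spearman 0.83). This correlation is across genes that share arrays and are not independent, and the hairpin is only an approximation of the probes' own composition, which was not used here. The 65 members with the least G and C (28.4% to 42.4%) had a median level of 3.61, and 1 of them lay above the olfactory receptor level. Members with 42.5% to 47.3% had a median of 5.01, with 1 of 64 above. Those with 47.4% to 53.7% had a median of 6.11, with 17 of 64 above. The richest members had a median of 7.57, with 47 of 65 (72.3%) above. The relation was of like size for members within coding genes (0.79, n = 115) and for those outside them (0.84, n = 143), and in each array (0.81 to 0.83). Hairpin length correlated less with the level (0.23). The difference between KO and WT did not follow composition in the same way, with a correlation of 0.05 over the same 258 members.

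**Figure D1:**
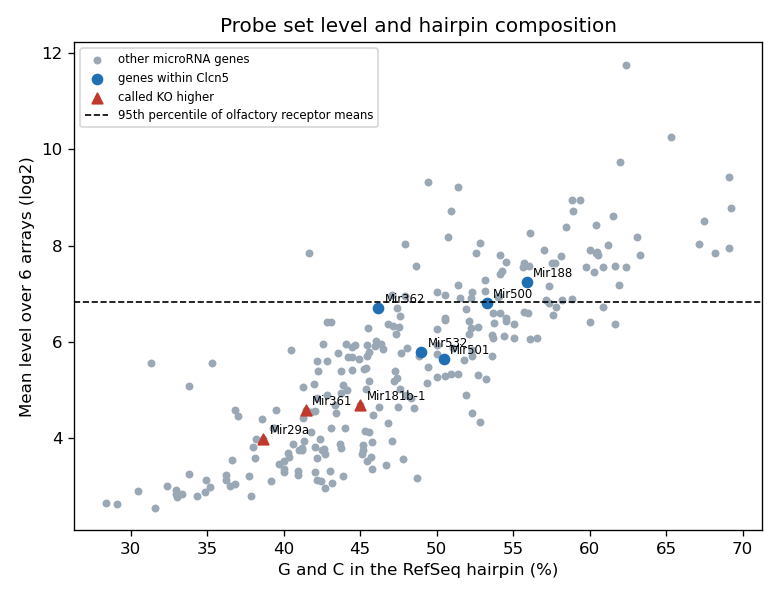
Mean level over 6 arrays (log2, y axis) against the share of G and C in the RefSeq hairpin (%, x axis) for 258 microRNA genes, 1 point each. Blue points are the 5 genes within Clcn5, red triangles are called genes with a hairpin in the table, and the dashed line is the olfactory receptor level of 6.83. Points rise from about the lower left to the upper right (r = 0.82).

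The tissue-restricted microRNA genes gave a second view of the levels. These genes are known mainly from muscle, neurons, liver, blood cells, endothelium, epithelium or embryonic stem cells, and 5 of the 37 measured lay above the olfactory receptor level. None of the 7 muscle genes did, which include Mir206 and Mir1a-1 of skeletal and cardiac muscle, and none of the 5 stem cell genes of the Mir302 group. The 5 above it were Mir124a-2, Mir219a-1 and Mir219a-2, known from neurons and glia, Mir150 of lymphocytes and Mir200a of epithelia. Mir219a-1 had 7.66, 8.06 and 7.90 in WT and 8.14, 7.91 and 7.99 in KO, and its hairpin is among the richest in G and C shown above.

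Few microRNA genes differed between KO and WT. With limma over all 19938 genes, 5 of the 296 members (1.69%) rose and 0 fell at an adjusted p under 0.05, against 3.34% of all genes higher and 3.97% lower. At an unadjusted p under 0.05, 32 members (10.8%) differed, 25 higher and 7 lower, against 20.7% of all genes. All 3 KO values lay above all 3 WT values in 21 members (7.09%, against 11.4% of all genes), and below them in 9 (3.04%, against 13.5%). The median difference was 0.03 for members, KO minus WT, and 0.00 for all genes, and 188 members were positive and 108 negative (63.5% positive, against 52.3% of all genes). The members' median was 0.0073 without WT replicate 1, with 161 positive and 135 negative, 0.013 without KO replicate 1 and 0.047 without WT replicate 2. Members ranged from -0.28 (Mir186) to 0.63 (Mir145a). Among the 85 members above the olfactory receptor level 1 was called (1.18%, against 4.75% of such genes higher and 5.91% lower). Among the 211 others 4 were called (1.90%, against 0.643% of such genes higher and 0.263% lower). An unadjusted p under 0.05 was found for 7 of the 85 (8.24%, against 28.3% of such genes) and 25 of the 211 (11.8%, against 5.96%). All KO values lay above all WT values in 18 of the 211 (8.53%, against 4.44%) and below them in 5 (2.37%, against 2.38%). In the 85 these shares were 3.53% and 4.71%, under those of such genes. The lower shares of the 296 members therefore held for the 85 and not for the 211. After quantile normalization again, 6 members were called higher and 1 lower, against 7.78% of all genes called in either direction. In that setting 168 members were positive and 128 negative. The members' median difference was then 0.01.

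The genotype was not the only way in which the arrays differed. WT replicate 1 was the lowest of the 6 arrays in 121 members, and KO replicate 1 the highest in 80. The members' median level was 5.71, 5.82 and 5.76 in WT replicates 1 to 3 and 5.82, 5.77 and 5.82 in KO replicates 1 to 3. An array's deviation from each gene's mean correlated with hairpin G and C at -0.31 in WT replicate 1, 0.37 in WT replicate 2 and 0.24 in KO replicate 1, and at -0.14 to -0.06 in the other 3 arrays. Members' median SD within groups was 0.09, against 0.06 for all genes. Without WT replicate 1, or without WT replicate 3, 0 members were called by limma (against 2.48% and 0.948% of all genes). Without WT replicate 2 there were 5 and without KO replicate 2 there were 6 (against 4.67% and 4.15%). In each case they shared only Mir181b-1 with the 5 above. Without KO replicate 1 only Mir29a and without KO replicate 3 only Mir145a was called (against 4.13% and 3.07% of all genes).

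The labelled cell type was checked by its markers: 8 of the 9 measured stroma genes were above the olfactory receptor level, against 14 of 38 markers of other marrow cells. Of those 38 genes 0 were called higher and 2 lower (5.26%), against 3.34% and 3.97% of all genes. Cd68, a macrophage marker, fell by 0.19 and Kdr, an endothelial receptor, fell by 0.29 (limma adjusted p = 0.015 and 0.042). Differences were positive in 8 of the 10 macrophage markers and in 3 of the 6 endothelial markers. The mean level of the 10 macrophage markers was 6.61 to 6.73 in WT arrays and 6.66 to 6.73 in KO arrays, and that of the 6 endothelial markers 6.56 to 6.63 and 6.48 to 6.59. Of the 9 stroma genes, 2 were called higher and 2 lower by limma (22.2% each). Among all genes above the olfactory receptor level these shares were 4.75% and 5.91%. In this list Pdgfra rose by 0.26 and Pdgfrb by 0.14, while Nt5e fell by 0.28 and Kitl by 0.19. The mean level of the 9 genes was 8.91 to 8.94 in both genotypes, a mean in which rises and falls can offset each other. In bulk arrays fewer cells of a type and less RNA per cell cannot be told apart, and the part of other cells in the microRNA results was not tested.

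The called gene with the smallest p was Mir181b-1, known for roles in lymphocyte and vascular biology. Its levels were 4.41, 4.57 and 4.57 in WT and 4.87, 4.79 and 4.94 in KO. Every KO array was above every WT array, and the rise was 0.35 (SE 0.06, adjusted p = 0.020, limma). It kept the call without WT replicate 2 or KO replicate 2 and lost it in the other 4 fits that left out an array. Its neighbour Mir181a-1, on the same primary transcript, differed by 0.05 (adjusted p = 0.577). The mature strands of Mir181b-1, Mir29a and Mir361 are shown with the seed in capitals, to tell whether these called genes share one. They do not. The Mir181b-1 strand spans chr1:137966650-137966673 (plus strand), the Mir29a strand chr6:31062673-31062694 (minus strand) and the Mir361 strand chrX:113074867-113074888 (minus strand).
miR-181b-5p: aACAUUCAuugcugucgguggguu
miR-29a-3p: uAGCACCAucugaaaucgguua
miR-361-5p: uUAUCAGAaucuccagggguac
The seed ACAUUCA was shared by 6 members, all genes of the miR-181 family, which was picked out after its values were seen. All 6 had positive differences in the deposited scaling and after both other normalizations. In the deposited scaling they ran from 0.05 to 0.35, with a median of 0.10. Only Mir181b-1 passed the test.

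The largest rise was that of Mir145a, a microRNA of smooth muscle and mesenchymal cells that shares its primary transcript with Mir143. Its levels were 5.97, 6.00 and 6.10 in WT and 6.49, 6.50 and 6.97 in KO. The groups did not overlap, KO replicate 3 stood well above the other KO arrays, and the rise was 0.63 (SE 0.13, adjusted p = 0.035). All 6 values but that of KO replicate 3 lay under the olfactory receptor level. Without KO replicate 3 the rise was 0.47 and still called. In each of the other 5 fits that left out an array the call was lost, with differences of 0.60 to 0.71. Mir143, which promotes adipocyte differentiation in cultured preadipocytes, had 6.879, 7.129 and 7.046 in WT and 7.098, 7.002 and 7.012 in KO. The genotypes overlapped, and the difference was 0.02 (95% interval -0.14 to 0.18, adjusted p = 0.912).

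Mir361, held by the Rab escort protein gene Chm on the X chromosome, had 4.38, 4.52 and 4.25 in WT and 4.94, 4.85 and 4.65 in KO. The groups did not overlap, and the rise was 0.43 (SE 0.09, adjusted p = 0.041), while Chm differed by 0.04 (adjusted p = 0.653). Mir29a belongs to a family that targets collagen messages. It had 3.85, 3.68 and 3.86 in WT and 4.02, 4.31 and 4.27 in KO, a rise of 0.40 (SE 0.09, adjusted p = 0.044) without overlap. Its neighbour Mir29b-1 had the same value, 2.92, in all 3 WT arrays and 2.95, 3.05 and 3.22 in KO, a difference of 0.15 (adjusted p = 0.252). Equal values within a group can come from the summary of probes, so they are no measure of precision, and 14 members (4.73%) had such ties. Both Mir361 and Mir29a lay far under the olfactory receptor level.

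Mir30d was the called gene that lay above the olfactory receptor level. It belongs to a family studied as promoters of adipogenesis. Its levels were 7.75, 7.87 and 7.82 in WT and 8.17, 7.98 and 8.05 in KO, a rise of 0.26 (SE 0.06, adjusted p = 0.048) without overlap. It lost the call in all 6 fits that left out an array, as did Mir361. The other 5 genes of the miR-30 family, chosen after the values were seen, differed by -0.08 to 0.10 and none passed the test. Mir30b, near Mir30d on its chromosome, had 5.10, 5.08 and 4.97 in WT and 5.05, 5.36 and 5.05 in KO, with overlap.

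**Figure D2:**
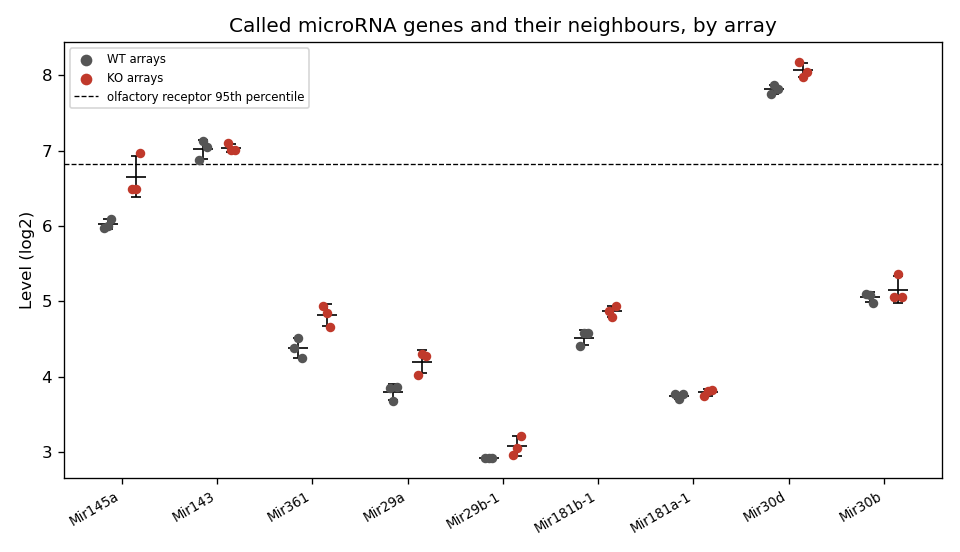
Levels (log2, y axis) of the 5 called microRNA genes and of genes near 4 of them, by array. Grey points are WT arrays and red points KO arrays, the bars show mean ± SD (n = 3), and the dashed line is the olfactory receptor level. Groups separate in the called genes, and overlap in Mir143, Mir181a-1 and Mir30b.

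The members next in order of p missed the threshold. Mir200a, an epithelial microRNA, had 6.98, 7.01 and 6.98 in WT and 6.88, 6.81 and 6.84 in KO, a difference of -0.14 (adjusted p = 0.051). It was called after both other normalizations and when dim genes were left out, but in no fit that left out an array. Over 13 alternatives its adjusted p (limma) ran from 0.014 to 0.211, with 4 under the threshold. Mir335, within the imprinted gene Mest and studied in both fates of these cells, had 6.27, 6.38 and 6.29 in WT and 6.61, 6.43 and 6.55 in KO, a difference of 0.22 (adjusted p = 0.068), while Mest differed by -0.15 (adjusted p = 0.147). Mir335 too was called after both other normalizations (adjusted p = 0.039 and 0.038, against 0.011 to 0.235 over 12 alternatives). Mir547 of the X chromosome differed by 0.23, Mir26a-1 by 0.15 and the blood cell gene Mir142 by -0.13 (adjusted p = 0.103 to 0.116). Mir713 was the one member with several probe sets: the highest of its 3 gave -0.02 and the lowest 0.19, neither called.

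Of the 5 genes within Clcn5, 3 had a positive and 2 a negative difference, and none was called. Mir500 had 6.72, 6.78 and 6.78 in WT and 7.05, 6.75 and 6.80 in KO. Mir362 had 6.77, 6.61 and 6.61 in WT and 6.76, 6.84 and 6.61 in KO. In both genes the genotypes overlapped. Mir188 had 7.22, 7.27 and 7.38 in WT and 7.22, 7.22 and 7.13 in KO, so WT replicate 1 equalled the higher KO arrays. Mir501 had 5.57, 5.84 and 5.65 in WT and 5.71, 5.65 and 5.48 in KO. Mir532 had 5.71, 5.79 and 5.85 in WT and 5.97, 5.56 and 5.89 in KO. In Mir501 and Mir532 the genotypes overlapped, and in Mir188 they met only at the tied value. Of the 5 genes only Mir188 lay above the olfactory receptor level. The 95% intervals of the differences were -0.22 to 0.02 for Mir188, -0.08 to 0.29 for Mir500, -0.28 to 0.13 for Mir501, -0.10 to 0.25 for Mir362 and -0.23 to 0.28 for Mir532. None had an unadjusted p under 0.05. All 5 intervals include 0 and overlap each other, so they cannot tell whether the genes moved together or apart. Whether the Mir188 probe set reads the deleted sequence is not known here. These values therefore do not test the genotype labels, and KO stands for the arrays labelled so. With array weights Mir188 differed by -0.18 (adjusted p = 0.042, against 0.228 to 0.663 over the other 12 alternatives), a fit that weighted WT replicate 3 by 7.41 and every other array by 0.52 to 1.19.

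**Figure D3:**
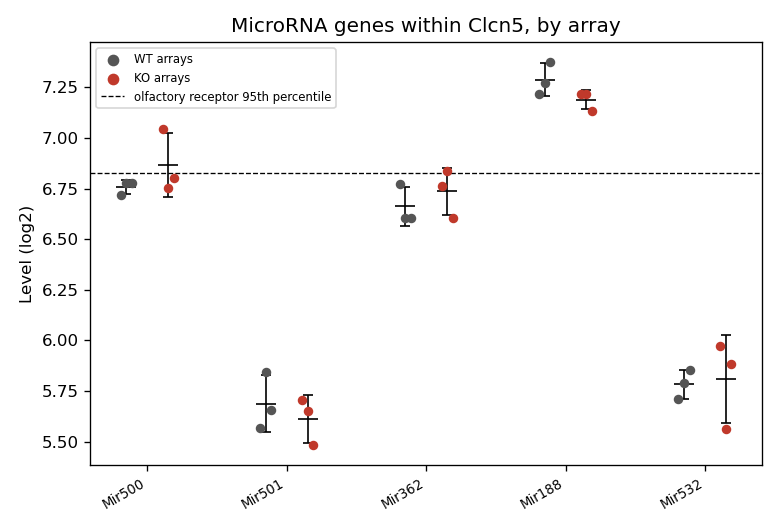
Levels (log2, y axis) of the 5 microRNA genes within Clcn5, in order along the X chromosome, by array. Grey points are WT arrays and red points KO arrays, the bars show mean ± SD (n = 3), and the dashed line is the olfactory receptor level of 6.83. The genotypes overlap in Mir500, Mir501, Mir362 and Mir532, and meet at a tied value in Mir188.

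The Clcn5 cluster was compared with other clusters from a list by counts and medians, with no test. The list did not hold every measured cluster or every cluster member. Its median difference was 0.02 and its span, from Mir188 at -0.10 to Mir500 at 0.11, was 0.21. The 12 other listed clusters with 3 or more measured genes had medians of -0.06 to 0.11 and spans of 0.05 to 0.38, and 5 of them were wider. The Clcn5 cluster therefore lay within the range of the others. None of the 88 genes in these 13 clusters was called, against 7.31% of all genes. Among genes not above the olfactory receptor level 0.643% were called higher and 0.263% lower. The called genes Mir145a and Mir29a lie in clusters with 2 measured genes, which were left out here. Mir181b-1 with its neighbour Mir181a-1, and Mir30d with Mir30b, were not among the listed clusters and so are not counted here either. The 40 measured genes of the imprinted Dlk1-Dio3 region had a median of 0.03, from Mir495 at -0.16 to Mir299a at 0.22, and 13 of them were above the olfactory receptor level. The growth-promoting cluster of Mir17 had a median of -0.03, from Mir17 at -0.05 to Mir19a at 0.13. Its relative, the cluster of Mir106b within Mcm7, had 0.11, from Mir93 at 0.07 to Mir25 at 0.14. The cluster of Mir106a on the X chromosome ran from Mir20b at -0.19 to Mir363 at 0.09, with a median of 0.00. The Mir23a cluster had 0.11, from Mir27a at 0.09 to Mir24-2 at 0.21. The X-linked cluster near Fmr1 had 0.10, from Mir470 at -0.02 to Mir547 at 0.23, and all 6 of its measured genes were below the olfactory receptor level. The Sfmbt2 cluster ran from Mir297b at -0.19 to Mir669b at 0.09, and the Mir450 cluster from Mir542 at -0.08 to Mir450-1 at 0.08. The Mir183 cluster of sensory cells ran from Mir96 at -0.07 to Mir182 at 0.21, and the Mir302 cluster from Mir302d at -0.09 to Mir302b at 0.04. The let-7 clusters ran from Mirlet7d at 0.03 to Mirlet7f-1 at 0.08, and from Mir125a at 0.02 to Mirlet7e at 0.16.

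**Figure D4:**
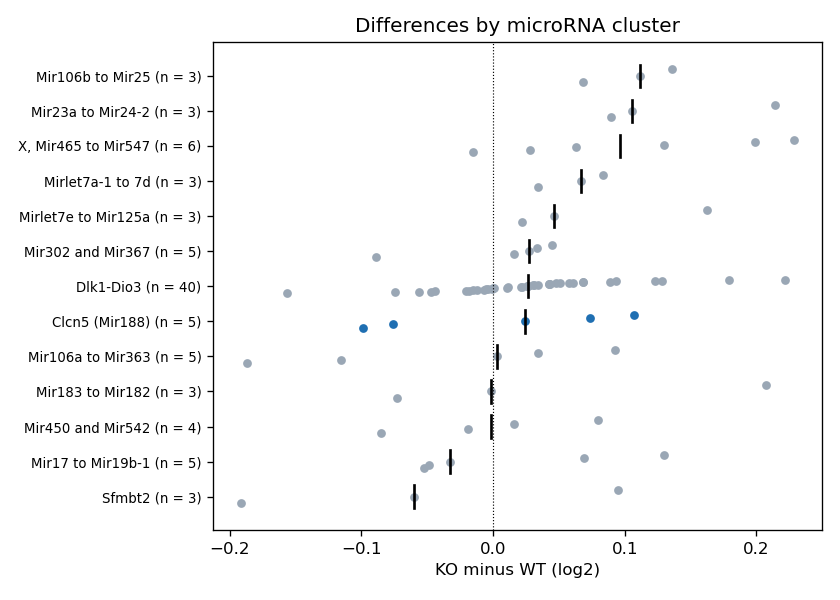
KO minus WT differences (log2, x axis) of single genes in 13 listed microRNA clusters with 3 or more measured genes (y axis, with n), ordered by median. Points are genes, blue for the Clcn5 cluster, and bars are medians. The Clcn5 cluster, with a median of 0.02, sits among the others.

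The members that followed Mir188 most closely over the 6 arrays were Mir20b (Pearson r 0.95), Mir219a-2 (0.92) and Mir196a-2 (0.92), among all other members. The 6 arrays share their genotype and scaling, so the likeness is a description, and 6 members had an r over 0.8. Mir20b, of the X-linked cluster of Mir106a, had 4.68, 4.73 and 4.84 in WT and 4.65, 4.61 and 4.44 in KO, with no overlap. Mir219a-2 had 7.52, 7.60 and 7.67 in WT and 7.55, 7.52 and 7.52 in KO, with overlap. Mir196a-2 had 5.77, 5.79 and 5.80 in WT and 5.77, 5.77 and 5.72 in KO, tied at its lower values. None of these 3 genes passed the test.

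Members were also grouped by seed. Of the 390 seeds among the mature strands, 20 were shared by 3 or more members, 72 genes in all. The seed GAGGUAG of let-7, a family that restrains growth and stem cell programmes, was held by 9 members with a median of 0.07, from -0.03 to 0.25 (Mirlet7f-2), and none was called. The miR-17 seed AAAGUGC was held by 6 members with a median of -0.05, and the miR-15 and miR-16 seed AGCAGCA by 6 with a median of -0.03. The seed AUUGCAC of miR-25 and miR-92 was held by 6 members with differences of 0.03 to 0.18 and a median of 0.11. The miR-103 and miR-107 seed GCAGCAU, of a family linked to insulin sensitivity, was held by 3 members with a median of -0.12. Among the members with a mature sequence in the table, 1 called gene, Mir181b-1, held one of these 20 seeds. The called genes Mir30d and Mir145a were not assigned a seed.

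Lists of microRNAs by their studied roles had few calls. Of 25 microRNA genes listed as promoters of adipogenesis, 2 rose (Mir145a and Mir30d, 8%), against 3.34% of all genes, 0 fell, against 3.97%, and the median difference was 0.01. However, 19 of the 25, Mir145a among them, were not above the olfactory receptor level, where 0.643% of all genes were called higher. Whether each listed gene, Mir145a among them, promotes adipogenesis was not tested here. In this list Mir30e had 5.90, 5.90 and 5.94 in WT and 5.90, 5.82 and 5.78 in KO, and Mir103-2, which can act on insulin signalling, differed by -0.19 (adjusted p = 0.435). Of 16 studied as restraints on adipogenesis, 0 were called in either direction (limma), against 7.31% of all genes. An unadjusted p under 0.05 was found for 4 of the 16 (25%, against 20.7% of all genes), and the median was 0.05. Of these 16 genes, 11 were not above the olfactory receptor level, where 5.96% of all genes had such a p. The largest difference in this list was that of Mir448, within the serotonin receptor gene Htr2c, with 6.02, 6.21 and 6.30 in WT and 6.51, 6.33 and 6.48 in KO, or 0.26 (adjusted p = 0.122). Mir224 differed by 0.18, Mir194-2 by -0.09 and Mir33, a regulator of cholesterol export within Srebf2, by -0.10, none of which passed the test. Of 25 studied in osteoblasts, 1 rose (Mir29a, 4%, against 3.34% of all genes), 0 fell and the median was 0.05. Of these 25, 18 were not above the olfactory receptor level, Mir29a among them, where 0.643% of all genes were called higher. In that list Mir205 differed by 0.14 and Mir338 by -0.17 (adjusted p = 0.179 and 0.375). Of the 37 tissue-restricted genes 0 were called (limma, against 7.31% of all genes), and 8 had an unadjusted p under 0.05 (21.6%, against 20.7%). However, 32 of the 37 were not above the olfactory receptor level, where 5.96% of all genes had such a p. Among all 296 members the share was 10.8%. The KO values lay above all WT values in 3 of the 37 (8.11%, against 11.4% of all genes) and below them in 2 (5.41%, against 13.5%). For all genes not above the olfactory receptor level these shares were 4.44% and 2.38%. Of the 37, Mir451a of red cells differed by 0.22, Mir155 of immune cells by 0.12, and Mir203 and Mir182 of epithelia by 0.15 and 0.21. Mir1a-1 of muscle differed by 0.19, Mir499 by -0.11 and Mir128-2 of neurons by 0.24. None of these genes passed the test.

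MicroRNA genes were set beside the coding genes that hold them. Of the 137 members within a coding gene, 133 had a measured host, in 136 pairs with 101 hosts. The gene table used gives no strand, so a microRNA on the opposite strand of its host is counted as held. Across pairs, which share arrays and often hosts, the differences correlated at a Pearson r of 0.10 and the levels at 0.03. Of the 101 hosts 78 lay above the olfactory receptor level, where 4.75% of all genes were called higher and 5.91% lower. Among all 101 hosts 10 were called (9.90%, against 7.31% of all genes), 5 higher and 5 lower. They held 12 members, of which 0 were called and 6 had the sign of their host, with differences of -0.10 to 0.25. Smc4, a subunit of condensin, fell by 0.43 (adjusted p = 0.009), with 10.4, 10.2 and 10.3 in WT and 9.77, 9.92 and 9.83 in KO. The Mir15b and Mir16-2 that it holds differed by 0.00 and -0.06. Rnf130 rose by 0.32, and its Mir340 differed by -0.02. The phosphatase gene Ctdspl rose by 0.26 and its Mir26a-1 differed by 0.15, the arrestin gene Arrb1 rose by 0.21 and its Mir326 differed by 0.09, and the sterol regulator Srebf2 fell by 0.20 with Mir33 at -0.10. The ubiquitin ligase gene Huwe1 fell by 0.15, while its Mir98 and Mirlet7f-2 differed by 0.11 and 0.25. Slit2, a guidance cue, fell by 0.21 and Mir218-1 differed by 0.08, and the phosphodiesterase gene Pde2a fell by 0.20 and Mir139 differed by -0.01. Nsrp1 and Sf3a3, both of splicing, rose by 0.20 each, with Mir423 at 0.03 and Mir697 at -0.01. Clcn5 itself differed by 0.03 (adjusted p = 0.704).

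**Figure D5:**
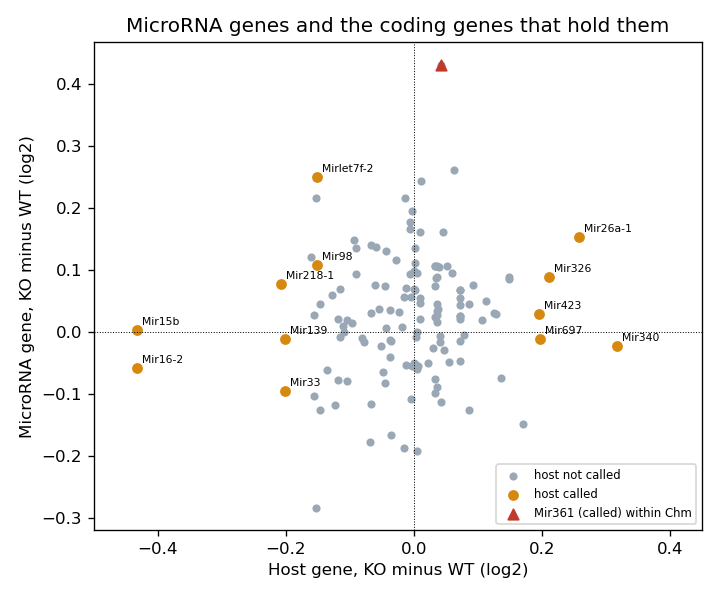
KO minus WT differences (log2) of microRNA genes (y axis) against those of the coding genes that hold them (x axis), 136 pairs. Orange points are pairs whose host was called, labelled by the microRNA gene, and the red triangle is Mir361 within Chm. Orange points spread along the x axis and stay between -0.10 and 0.25 on the y axis.

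Among the noncoding host transcripts, Mir100hg, which holds Mir100, Mirlet7a-2 and Mir125b-1, was clearly above the olfactory receptor level. It had 8.16, 8.26 and 8.22 in WT and 8.54, 8.52 and 8.61 in KO, a rise of 0.34 (SE 0.04, adjusted p = 0.008) without overlap. The genes it holds differed by 0.03, 0.07 and 0.11, and none was called. Its call did not hold when WT replicate 3 was left out (adjusted p = 0.057), and over 13 alternatives the adjusted p ran from 0.0015 to 0.065. Dnm3os, host of Mir199a-2 and Mir214, had 7.67, 7.63 and 7.62 in WT and 7.74, 7.99 and 7.92 in KO, a difference of 0.24 (adjusted p = 0.075). Dleu2, a host of Mir15a and Mir16-1, differed by -0.03. Of the 7 such transcripts measured, 1 was called higher (14.3%, against 3.34% of all genes) and 0 lower.

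Of the 39 measured genes of microRNA processing and silencing, 1 rose (2.56%, against 3.34% of all genes), 0 fell, and 12 had an unadjusted p under 0.05 (30.8%, against 20.7% of all genes). Their median difference was 0.02, and 37 of them lay above the olfactory receptor level. Among all genes above that level 4.75% were called higher, 5.91% lower, and 28.3% had an unadjusted p under 0.05, near the share in this list. In the nucleus, Adar, which edits adenosine in double-stranded RNA, had 7.982, 7.982 and 8.001 in WT and 8.102, 8.131 and 8.153 in KO, a rise of 0.14 (SE 0.03, adjusted p = 0.045) without overlap. It lost the call in all 6 fits that left out an array. Dgcr8, the partner of Drosha, differed by 0.09, Srsf3 by -0.09 and the exporter Xpo5 by -0.11 (adjusted p = 0.079), none past the test. Of the cytoplasmic genes, Dicer1 had 8.39, 8.31 and 8.30 in WT and 8.49, 8.42 and 8.41 in KO, a difference of 0.11 (adjusted p = 0.187) with no overlap. The uridylyltransferase gene Tut7 differed by 0.17, the Dicer partner gene Prkra by -0.07 and Lin28b, which blocks let-7 processing, by -0.03. Of the silencing genes, the helicase genes Mov10 and Ddx6 differed by 0.12 and 0.10, the deadenylase scaffold Cnot1 by -0.13 and the decapping enzyme Dcp2 by -0.18 (adjusted p = 0.088 to 0.127).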

How the data were processed

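Gene expression was measured on 6 single-colour Affymetrix gene arrays, 1 per sample and 3 per genotype, hybridised with biotinylated copies of 6 µg total RNA (per the labels). The authors deposited log2 values. The submitters' processing notes list RMA, a background correction and normalization between arrays with probe summary, beside Partek and Affymetrix Expression Console. Of its 35556 probe sets, 21789 had 1 gene symbol in the platform's annotation, and the probe set with the highest mean stood for each gene. KO was compared with WT over all 19938 genes with limma 3.58.1 (R 4.3.3; lmFit, eBayes, two-sided, Benjamini-Hochberg, threshold 0.05), without covariates or filter. The fit was tested on simulated data. Arrays give no read depth, so their number limits the precision. Members, lists and tests were chosen with earlier results of these data known. Named genes are the Clcn5 cluster, called members, members with the smallest p, extremes of each cluster, the 2 smallest p per direction in each list, called hosts and the genes most like Mir188. Neighbours of called genes, the largest fall and seed families were chosen after their values were seen. Alternatives were other normalizations, no dim genes, the lowest probe set, an intensity trend, array weights, a replicate number as covariate and leaving out each array.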

Additional observations from a re-analysis of the deposited data

How the results depend on the processing

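The share of all genes called moved with the setting. In either direction it was 7.31% in the main fit, 7.78% after quantile normalization again and 7.69% after cyclic loess. It was 16.7% without dim genes, 11% with an intensity trend and 17.1% with array weights. With the replicate block it was 0.261%, and without 1 array 0.948% to 4.67%. The 5 members called higher became 1 when dim genes were left out, 21 with array weights, 0 with the replicate block, and 0 to 5 when 1 array was left out. The 0 called lower became 1 after quantile normalization again, 1 after cyclic loess, 1 without dim genes, 5 with array weights, and 0 to 1 without 1 array. The 1 called gene of processing and silencing became 3 after quantile normalization, 2 after cyclic loess, 4 without dim genes, 5 with an intensity trend, 11 with array weights, 0 with the replicate block, and 0 in every fit without 1 array. The median of the Clcn5 cluster was -0.10 without dim genes, which keeps 1 of its genes, and -0.059 to 0.046 without 1 array. Mir188 differed by -0.18 with array weights. At the 99th and 50th percentiles of the olfactory receptors, 48 and 187 members lay above. Same-numbered WT and KO arrays deviated from their group means with correlations of -0.30, -0.26 and -0.02. For arrays of unlike number the correlations ran from -0.12 to 0.33. The 3 deviations within a group depend on each other, so these values cannot tell whether the numbers pair the cultures. The replicate block, the number as a covariate, left 52 of 19938 genes called. The causes were not tested. Leaving out an array leaves a group of 2, and fewer degrees of freedom.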
